A study of Mus musculus with 6 samples.

Results

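The surface markers used to separate mammary epithelial populations by flow cytometry or to enrich their stem cells were examined in HC11 cells, a mouse mammary epithelial line. The 9 genes are *Cd24a*, *Epcam*, *Cd44*, *Procr*, *Prom1*, *Ly6a*, *Kit*, *Thy1* and *Cd14*, taken by name from the 55809 genes counted. The cells were cultured in medium with BMP7 (3 libraries) or in medium without it (Ctrl, 3 libraries), and nothing else in the labels separates the groups. Per the study's methods, HC11 cells were starved for 16 h before BMP7 was added at 50 ng per mL. Exposures of 30 min and of 6 h are listed without naming the 1 used for sequencing. Its text treats HC11 as a luminal line. All libraries come from 1 cell line, and the labels do not say whether the replicates were separate cultures, so p-values measure the spread between these libraries.

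Cells of the mammary epithelium are told apart by a few proteins at their surface. CD24, a small glycoprotein held in the membrane by a lipid anchor, and EPCAM, a homophilic adhesion molecule of epithelia, are high on luminal cells and lower on basal cells, whereas the laminin receptor integrin alpha 6 (CD49f) is high on basal cells. CD44 is the hyaluronan receptor. PROCR is the receptor of protein C and marks a rare basal population with stem cell activity. LY6A (SCA1), the receptor tyrosine kinase KIT, PROM1 (CD133) and CD14, which presents lipopolysaccharide to TLR4, are used to divide the luminal compartment. THY1 (CD90) is found on basal and stromal cells. RNA-sequencing measures transcripts, so the levels below say nothing on the amount of protein at the surface, and in RNA from bulk cultures a change in the share of cells cannot be told apart from a change per cell.

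Between 14607938 and 23748970 fragments were counted per library, and libraries are named by the numbers of their columns (Ctrl 1, 2 and 3, and BMP7 1, 3 and 4). Levels are given as CPM, counts scaled to a common library size by TMM, and as RPKM, CPM per kilobase of exon, where genes are compared with each other. The basal keratin *Krt14* was at 1982 ± 71.3 RPKM in Ctrl and *Krt5* at 1202 ± 19.4 (SD, n = 3), against 32.2 ± 2.33 for the luminal *Krt8* and 34.4 ± 1.00 for *Krt18*, so these libraries carried basal keratins far above luminal ones. At the thresholds given below, 5.99% of all genes tested were higher with BMP7 and 5.38% lower. Of 10 tested basal genes 5 were higher and none lower, *Krt14* and *Snai2* among the 5. Of 12 tested luminal genes 1 was higher (*Gata3*) and 2 were lower (*Krt18* and *Cldn3*). No fragment of the luminal *Pgr* or *Csn3* was counted in any library. The basal contractile genes *Acta2*, *Myh11* and *Cnn1* were also near the floor, at 0.601, 0.277 and 0.0812 CPM in Ctrl. With BMP7 they were at 0.245, 0.809 and 0.0380 CPM. *Acta2* lay below Ctrl and *Myh11* above Ctrl in every BMP7 library, neither being called. Not all genes of the basal list were that low. *Mylk* was at 3.76 CPM in Ctrl and 3.40 with BMP7, and *Oxtr*, called higher, at 12.3 and 36.7 CPM. Of the 10 tested basal genes, 4 had a negative log2 fold change, and of the 12 tested luminal genes, 9. *Mme*, a gene of myoepithelial cells outside this basal list, was called lower and is given below. The libraries also differed in transcripts of other cell types. The summed level of 17 macrophage genes lay between 65.5 and 70.4 CPM in Ctrl, at 69.8 in BMP7 1 and at 32.5 and 30.7 in BMP7 3 and 4. That of 13 adipocyte genes lay between 47.0 and 62.3 CPM in Ctrl, at 83.3 in BMP7 1 and at 157 and 139 in BMP7 3 and 4. *Cebpa*, the most abundant of these adipocyte genes, had means of 23.7 CPM in Ctrl and 44.3 with BMP7. In BMP7 1, *Adipoq*, *Car3* and *Cfd* lay within their Ctrl ranges, and *Fabp4*, *Lpl*, *Cidec* and *Plin1* above theirs. Of 8 tested fibroblast genes 4 were higher (*Col1a2*, *Col3a1*, *Dcn* and *Dpt*) and 1 was lower (*Col1a1*), and *Dcn* was at 0.736 to 1.73 CPM in Ctrl, 1.74 in BMP7 1 and 4.44 and 4.90 in BMP7 3 and 4. Of 9 endothelial genes, 8 were below the expression filter in these libraries and *Pecam1* was at 14.4 CPM in Ctrl and 24.6 with BMP7.

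*Cd24a* is counted from a transcript of which little is coding. In GENCODE vM21 (on GRCm38, not the annotation of the counts) its longest coding transcript has 1816 bases, of which 231 (12.7%) are coding. The coding region has a near copy in the genome, the processed pseudogene *Gm6212* on chromosome 14. Fragments of it could be placed at either, and those placed at both were left out of the counts. How many were left out was not measured. The coding region of *Cd24a* and the whole of *Gm6212* are printed in lower case, and capitals mark the bases with no identical partner in a global alignment.
*Cd24a*: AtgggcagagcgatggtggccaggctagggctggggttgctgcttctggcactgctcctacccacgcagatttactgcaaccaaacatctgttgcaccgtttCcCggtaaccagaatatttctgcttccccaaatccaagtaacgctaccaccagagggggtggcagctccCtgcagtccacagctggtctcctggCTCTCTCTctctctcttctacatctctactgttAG
*Gm6212*: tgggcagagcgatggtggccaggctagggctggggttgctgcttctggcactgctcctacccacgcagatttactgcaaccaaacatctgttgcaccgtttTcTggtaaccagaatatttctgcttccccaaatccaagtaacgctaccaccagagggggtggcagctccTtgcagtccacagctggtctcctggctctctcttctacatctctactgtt
The alignment held 217 identical bases, which are 98.6% of the 220 bases of *Gm6212*, and 3 mismatches. Of the other markers, *Ly6a* had a close relative, *Ly6c1*, with a stretch of 263 bases at 96.6% identity. Parts of *Prom1* transcripts matched other transcripts as well, and *Epcam*, *Cd44*, *Procr*, *Kit*, *Thy1* and *Cd14* had no match of at least 100 bases at 95% identity.

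In cells without BMP7 the markers fell into steps, of which *Cd24a* and *Epcam* formed the highest. *Cd24a* was the most abundant, at 327 ± 23.2 RPKM (SD, n = 3), above 99.2% of the 15733 genes that passed the expression filter. *Epcam* followed at 291 ± 3.60 RPKM, and its highest Ctrl library (294) lay just below the lowest of *Cd24a* (301). *Cd44* at 23.7 ± 2.54 and *Ly6a* at 21.3 ± 0.731 RPKM came next, with ranges that overlapped. *Cd14* at 4.05 ± 0.183 and *Procr* at 3.23 ± 0.879 RPKM also overlapped. *Prom1* was low, at 0.283 ± 0.0657 RPKM. *Thy1* and *Kit* were near the limit of detection in Ctrl and could not be ordered, with 2, 2 and 0 fragments of *Thy1* and 4, 6 and 1 of *Kit* in Ctrl 1, 2 and 3. With BMP7 the steps were the same, with *Cd24a* at 817 ± 79.1 and *Epcam* at 218 ± 8.91 RPKM (SD, n = 3) now far apart, and *Ly6a* with *Cd44*, *Cd14* with *Procr* and *Kit* with *Thy1* again overlapping.

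**Figure D1:**
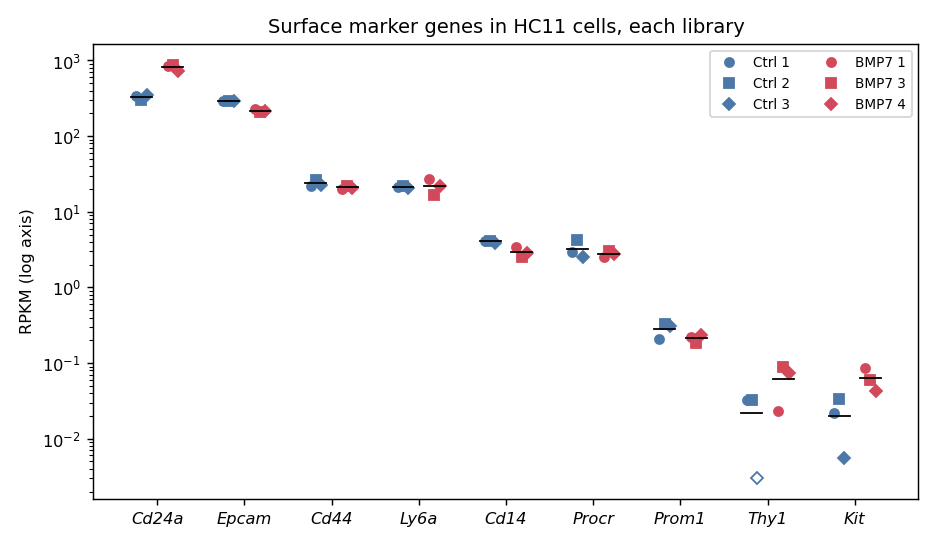
Transcript level of the 9 surface markers in each library, as RPKM on a log axis, with Ctrl in blue, BMP7 in red and a black line at each group mean of 3 libraries. The open symbol stands for a count of 0, drawn at the lower edge. *Cd24a* separates upward with BMP7 and *Epcam* slightly downward, while the red and blue symbols of *Cd44*, *Ly6a*, *Procr* and *Prom1* overlap.

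With BMP7, *Cd24a* rose 2.50-fold, *Epcam* fell by 0.42 on the log2 scale and *Cd14* fell by 0.48, whereas *Cd44*, *Ly6a*, *Procr* and *Prom1* did not pass the test. The 7 genes with enough counts were tested with edgeR's quasi-likelihood test together with all other genes, and a gene was called where its Benjamini-Hochberg adjusted p was under 0.05 and its fold change over 1.2. SE stands for the standard error of a log2 fold change. At these thresholds 11.4% of all genes tested were called, 5.99% as higher and 5.38% as lower. Of the 7 markers, 1 was higher and 2 were lower, and their median log2 fold change was -0.23, against -0.0062 over all genes tested. This median is the value of *Procr*, which did not pass the test and was at 0.0083 without Ctrl 2. All BMP7 libraries lay on 1 side of all Ctrl libraries for these 3 markers, a separation seen in 29.8% of the genes tested. A comparison of 3 libraries with 3 cannot give an exact two-sided permutation p under 0.1.

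*Cd24a*, on chromosome 10 from 43454280 to 43460261 of the annotation named mm39, was measured at 862, 777 and 892 CPM in Ctrl 1, 2 and 3 and at 2174, 2273 and 1880 CPM in BMP7 1, 3 and 4. The lowest BMP7 library was far above the highest Ctrl library, and the spread among the libraries of a group was small against the gap between the groups. The log2 fold change was 1.32 (SE 0.08, edgeR adjusted p = 6.18e-09), with a 95% interval from 2.22-fold to 2.81-fold. As a share of all fragments counted in a library, *Cd24a* went from at most 0.0901% in Ctrl to at least 0.187% with BMP7. By falling log2 fold change it ranked 173 of the 942 genes called higher. With any 1 library left out the change ranged from 1.27 to 1.40 on the log2 scale, and BMP7 1 alone against Ctrl gave 1.37. The adipocyte and macrophage sums of BMP7 1 were the nearest to Ctrl among the BMP7 libraries. Its adipocyte sum (83.3 CPM) was still above the Ctrl range (47.0 to 62.3 CPM). The part of other cell types in the change of *Cd24a* was not tested.

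The pseudogene *Gm6212* was measured at 18.2 to 22.3 CPM in Ctrl and at 50.5 to 55.7 CPM with BMP7, a log2 fold change of 1.36 (SE 0.08, edgeR adjusted p = 9.98e-09). Its counts were between 2.26% and 2.96% of those of *Cd24a* in all 6 libraries. They therefore moved with those of *Cd24a* at a nearly fixed share, and how many of them came from *Cd24a* transcripts was not tested. Adding the counts of *Gm6212* to *Cd24a* left the log2 fold change of *Cd24a* at 1.32.

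**Figure D2:**
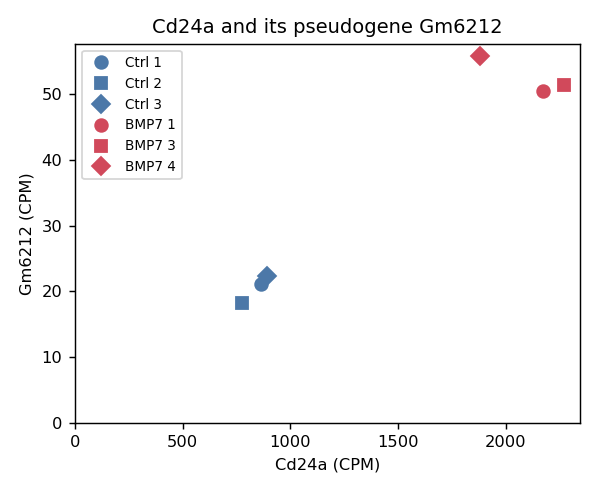
Level of *Gm6212* (vertical axis, CPM) against that of *Cd24a* (horizontal axis, CPM), 1 point for each library, both axes from 0. The 3 Ctrl points (blue) lie near 777 to 892 CPM of *Cd24a* and the 3 BMP7 points (red) near 1880 to 2273, and the share of *Gm6212* stays between 2.26% and 2.96%.

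*Epcam*, on chromosome 17 from 87943407 to 87958557, was measured at 646, 630 and 639 CPM in Ctrl 1, 2 and 3 and at 499, 460 and 478 CPM in BMP7 1, 3 and 4. The groups did not overlap, and the Ctrl libraries were close to each other. The log2 fold change was -0.42 (SE 0.06, edgeR adjusted p = 0.00012), a 1.33-fold decrease with a 95% interval from 1.22-fold to 1.46-fold. It ranked 509 by size of the change among the 846 genes called lower, so the change was precise rather than large. With any 1 library left out the change ranged from -0.45 to -0.39 on the log2 scale.

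The promoter of *Epcam* is shown because this was the marker past the thresholds whose promoter was at hand (RefSeq, GRCm38.p6, chr17:87635729-87636028, plus strand, from 250 bases before to 50 bases after the start site). The RefSeq table held promoters of 5 of the 9 genes: *Cd44*, *Procr*, *Prom1*, *Kit* and *Epcam*. Capitals mark matches to CAGGTG or its reverse complement CACCTG, an E-box that SNAI and ZEB repressors of epithelial genes are known to bind.
*Epcam* promoter: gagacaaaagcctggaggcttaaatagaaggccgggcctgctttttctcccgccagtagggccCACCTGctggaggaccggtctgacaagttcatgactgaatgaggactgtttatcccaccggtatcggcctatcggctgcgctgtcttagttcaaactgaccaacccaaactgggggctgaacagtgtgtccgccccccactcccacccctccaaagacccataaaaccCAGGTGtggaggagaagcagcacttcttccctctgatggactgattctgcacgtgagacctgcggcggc
The matches begin 187 and 19 bases upstream of the start site. Such a match, on either strand, was found in 20.2% of 32851 promoters of the same length, and 1 in a promoter of *Prom1*. GGCGCC, a GC-rich motif bound by BMP-activated SMAD proteins, was found in 11.9% of all promoters and in none of those 5 genes, and the short SMAD motif CAGAC or GTCTG in 49.6% of all promoters and in those of *Epcam* and *Procr*. These are matches of letters, and binding was not measured. *Snai2*, a basal transcription factor, rose from 91.6 ± 3.98 to 148 ± 11.2 CPM (SD, n = 3 each, log2 fold change 0.70, edgeR adjusted p = 1.75e-06). It was named after its value was seen, and other SNAI and ZEB genes are not given here. A relation between *Snai2* and *Epcam* was not tested.

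Since *Cd24a* rose and *Epcam* fell, their balance moved more than either gene. The ratio of *Cd24a* to *Epcam* RPKM within a library, which does not depend on library scaling, was 1.14, 1.05 and 1.19 in Ctrl 1, 2 and 3 and 3.71, 4.21 and 3.35 in BMP7 1, 3 and 4. By RPKM the ratio was thus near parity in every Ctrl library and above 3.3 in every BMP7 library, 3.34 times higher on average. This follows from the changes of both genes and is given as a description. The level of the ratio, unlike its change, depends on the exon lengths used (2580 bases for *Cd24a* and 2195 for *Epcam*). By CPM the Ctrl means were 844 and 639. Elsewhere in the study, luminal and basal cells of mouse mammary glands were sorted on CD24 and CD49f, the product of *Itga6*, while no such sort is described for these HC11 libraries. *Itga6* rose as well, from 207 ± 10.2 to 278 ± 14.1 CPM (SD, n = 3 each), with a change of 0.43 on the log2 scale (SE 0.06, edgeR adjusted p = 0.000157). *Cd24a* changed more than *Itga6*, and the ratio of their RPKM went from 14.1 to 15.0 in Ctrl to 22.6 to 29.5 with BMP7. The ratio of *Epcam* to *Itga6* went the other way, from 12.5 to 13.4 in Ctrl to 6.76 to 7.76 with BMP7. The transcripts of both proteins used in that sort were thus higher with BMP7.

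**Figure D3:**
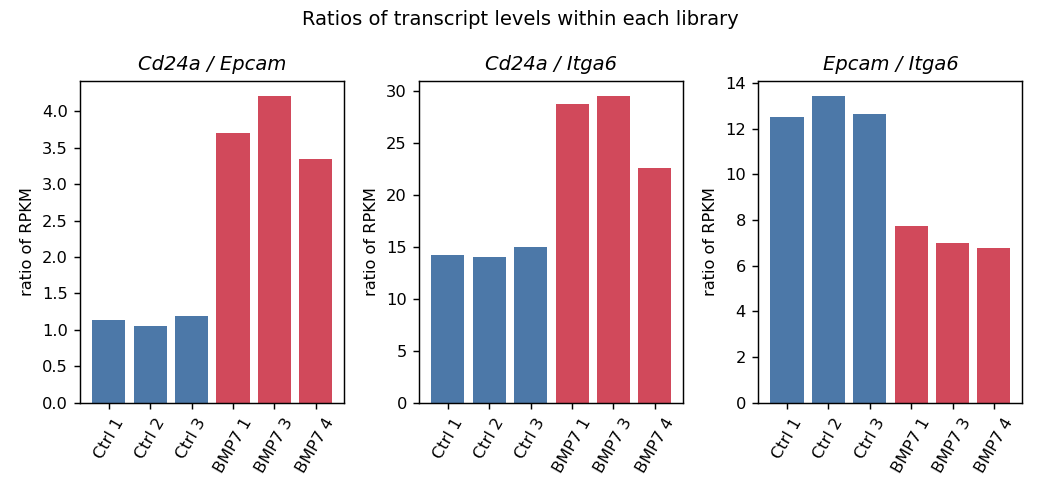
Ratios of RPKM within each library for *Cd24a* over *Epcam*, *Cd24a* over *Itga6* and *Epcam* over *Itga6*, with Ctrl bars in blue and BMP7 bars in red and each vertical axis starting at 0. The first ratio is between 1.05 and 1.19 in Ctrl and between 3.35 and 4.21 with BMP7, and the last is lower in all BMP7 libraries.

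*Cd14*, the lipopolysaccharide co-receptor, lay close to the threshold. It was measured at 7.21, 7.17 and 6.64 CPM in Ctrl 1, 2 and 3 and at 5.85, 4.35 and 5.01 CPM in BMP7 1, 3 and 4, with no overlap. The log2 fold change was -0.48 (SE 0.16, edgeR adjusted p = 0.0496), with a 95% interval from -0.81 to -0.15. The call was lost with DESeq2 (adjusted p = 0.0842) and on leaving out any library other than BMP7 1, with adjusted p of 0.139, 0.14 and 0.0819 without Ctrl 1, 2 and 3 and of 0.211 and 0.0922 without BMP7 3 and 4. Over all alternatives the adjusted p ran from 0.0246 to 0.524. Macrophages also express *Cd14*, and the summed level of the 17 macrophage genes was lower in BMP7 3 and 4. Of the 12 tested, 3 were called lower (*Lyz2*, *Itgam* and *Ptprc*) and none higher, and *Cd68* was above Ctrl in all BMP7 libraries (12.4 to 15.6 against 10.8 to 11.5 CPM) without passing the test. In BMP7 1, whose macrophage sum of 69.8 CPM was within the Ctrl range, *Cd14* was nearest to Ctrl, and that library alone against Ctrl gave a log2 fold change of -0.26 (edgeR adjusted p = 0.524, in which the lone library is assumed to vary like the others). Of the tested macrophage genes, *Lyz2*, *Itgam* and *Ptprc* lay below their Ctrl ranges in BMP7 1. *Cd68*, *Mpeg1*, *Ctss* and *Tyrobp* lay above theirs in that library. The part of macrophage RNA in the change of *Cd14* was not tested. The partner genes of *Cd14* were not all alike. *Tlr4*, the signaling receptor, fell from 43.0 ± 1.66 to 30.9 ± 0.994 CPM (log2 fold change -0.48, edgeR adjusted p = 0.000198), and *Lbp*, which carries lipopolysaccharide to CD14, fell from 4.90 ± 0.474 to 3.21 ± 0.253 CPM (log2 fold change -0.60, edgeR adjusted p = 0.033). For *Tlr4* and *Lbp*, BMP7 1 was the lowest of all 6 libraries, at 29.9 and 2.92 CPM. *Ly96*, *Tlr2* and *Myd88* did not pass the test, with log2 fold changes of 0.16, 0.16 and -0.08.

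**Figure D4:**
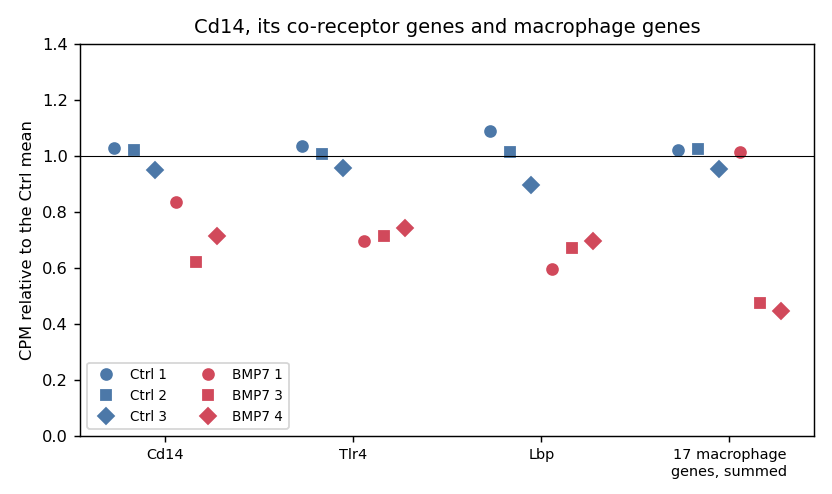
CPM relative to the Ctrl mean for *Cd14*, *Tlr4*, *Lbp* and the sum of 17 macrophage genes, 1 symbol for each library, with Ctrl in blue and BMP7 in red. BMP7 1 (red circle) sits with the Ctrl libraries for the macrophage sum and below them for *Tlr4*, *Lbp* and *Cd14*. Within that sum, *Lyz2* was below its Ctrl range in BMP7 1 and *Cd68* above its own.

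*Cd44* was measured at 148, 180 and 153 CPM in Ctrl 1, 2 and 3 and at 135, 149 and 141 CPM in BMP7 1, 3 and 4. Its groups overlapped by the highest BMP7 library and the lowest Ctrl library, and Ctrl 2 stood above the rest. The log2 fold change was -0.18 with a 95% interval from -0.33 to -0.02 (edgeR adjusted p = 0.138), so that a decrease beyond 1.26-fold lay outside the interval. It was -0.08 without Ctrl 2. *Ly6a* was measured at 25.3, 26.7 and 25.1 CPM in Ctrl and at 33.1, 19.8 and 26.2 CPM in BMP7 1, 3 and 4. The Ctrl libraries were alike, while the BMP7 libraries lay above, below and within them. Its log2 fold change of 0.02 had an interval from -0.26 to 0.30 (edgeR adjusted p = 0.946), and it changed sign with the library left out, to -0.17 without BMP7 1 against 0.20 without BMP7 3. *Ly6c1* had 5.31% to 10.5% of the counts of *Ly6a*, and with them added the log2 fold change was 0.06.

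*Procr* had between 73 and 174 fragments in a library and was measured at 6.06, 8.54 and 5.08 CPM in Ctrl and at 5.08, 6.08 and 5.56 CPM in BMP7 1, 3 and 4. All BMP7 values lay within the range of the Ctrl libraries. The log2 fold change was -0.23 with an interval from -0.62 to 0.17 (edgeR adjusted p = 0.487), and it was 0.0083 without Ctrl 2, the highest library. *Prom1*, with 23 to 48 fragments, was measured at 1.49, 2.36 and 2.25 CPM in Ctrl and at 1.60, 1.33 and 1.71 CPM in BMP7 1, 3 and 4. Its log2 fold change was -0.40 (SE 0.28, edgeR adjusted p = 0.404), and the 95% interval reached from a 2.00-fold decrease to a 1.15-fold increase, so that a change of that size could not be told from none at this depth. *Gm16401*, with no counts in any library, lies on the other strand over 5.91% of the exon bases of *Prom1*, and *Cd44* shares 3.00% of its exon bases with a gene on the other strand. Strand was not used in the counting.

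*Kit* and *Thy1* fell below the expression filter. *Kit* had 4, 6 and 1 fragments in Ctrl 1, 2 and 3 and 11, 12 and 7 in BMP7 1, 3 and 4, so its BMP7 libraries lay above its Ctrl libraries on very few counts. In a fit without the filter its log2 fold change was 1.59 (SE 0.69, edgeR adjusted p = 0.165). *Thy1* had 2, 2 and 0 fragments in Ctrl and 1, 6 and 4 with BMP7, and all Ctrl libraries were at or under the floor of 3 counts, so no fold is given. The fragments of *Thy1* with BMP7 lay mostly in BMP7 3 and 4, as did those of the fibroblast genes *Dcn* and *Dpt*, and a relation was not tested. The ligand of KIT was present, with *Kitl* at 58.1 to 68.3 CPM in Ctrl and 50.3 to 56.8 CPM with BMP7 (log2 fold change -0.20, edgeR adjusted p = 0.106).

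Other genes used for sorting or for enriching mammary progenitors gave 3 higher and 2 lower of 13 tested (16 listed, median log2 fold change 0.13). The shares over all genes tested were 5.99% and 5.38%. Beside *Itga6*, the higher ones were *Abcg2*, the dye efflux pump behind the side population, from 3.66 ± 0.747 to 6.14 ± 1.12 CPM (log2 fold change 0.74, edgeR adjusted p = 0.0174), and *Aldh1a3*, an aldehyde dehydrogenase, from 0.404 ± 0.191 to 1.19 ± 0.250 CPM (log2 fold change 1.56, edgeR adjusted p = 0.0194). Neither call was robust to the libraries used. *Abcg2* lost it without Ctrl 2, Ctrl 3, BMP7 1 or BMP7 3 (adjusted p from 0.0588 to 0.0797), and *Aldh1a3* without Ctrl 2, Ctrl 3, BMP7 3 or BMP7 4 (adjusted p from 0.0655 to 0.0999). The lower ones were *Mme*, which encodes the peptidase CD10 of myoepithelial cells, from 79.8 ± 5.56 to 43.8 ± 3.38 CPM (log2 fold change -0.87, edgeR adjusted p = 5.28e-07), and *Itgb3*, which encodes CD61 of luminal progenitors, from 68.7 ± 7.15 to 50.5 ± 1.53 CPM (log2 fold change -0.44, edgeR adjusted p = 0.000751). *Itgb1*, which encodes CD29, was more abundant than any other of this list, at 890 to 899 CPM in Ctrl and 967 to 988 CPM with BMP7. Its log2 fold change was 0.12 (edgeR adjusted p = 0.191), with the groups apart. *Cd200*, *Cd9*, *Dll1*, *Itga2*, *Muc1*, *Cd55* and *Lgr5* did not pass the test either, and *Tspan8*, *Ngfr* and *Aldh1a1* were below the filter.

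Among ligands, partners, regulators and relatives of the 9 markers, 2 were higher and 7 lower of 29 tested (31 listed, median log2 fold change -0.08). The shares over all genes tested were 5.99% and 5.38%. Under the fold threshold, *Hmmr* and *Rdx* were higher (log2 fold change 0.23 and 0.22, edgeR adjusted p = 0.0140 and 0.0197), and *Spp1* was lower. The genes called higher bear on CD44 and PROCR. *Has2*, a hyaluronan synthase and so a source of the CD44 ligand, rose from 41.4 ± 1.44 to 59.7 ± 6.55 CPM (log2 fold change 0.53, edgeR adjusted p = 0.00019). Of the other genes for CD44 ligands, *Spp1* and *Has3* lay lower with BMP7 in every library without being called. *Has1*, also a hyaluronan synthase, was below the expression filter, at 0.504 CPM in Ctrl and 0.368 CPM with BMP7, and its groups overlapped. *Spp1*, which encodes osteopontin and was the most abundant gene of this list, went from 2242 ± 168 to 1877 ± 78.3 CPM (log2 fold change -0.26, edgeR adjusted p = 0.0206, under the fold threshold), and *Has3*, another hyaluronan synthase, from 2.59 to 3.58 CPM in Ctrl to 2.09 to 2.44 CPM with BMP7 (log2 fold change -0.48, edgeR adjusted p = 0.181). *Pros1*, which encodes the cofactor protein S, rose from 26.1 ± 0.744 to 31.6 ± 1.92 CPM (log2 fold change 0.27, edgeR adjusted p = 0.0301), and lost the call without Ctrl 1, Ctrl 2, Ctrl 3, BMP7 1 or BMP7 4 (adjusted p from 0.0593 to 0.119). *F3*, the tissue factor that starts coagulation, fell from 10.8 to 11.8 CPM in Ctrl to 5.99 to 8.08 CPM with BMP7 (log2 fold change -0.71, edgeR adjusted p = 0.00157), and *Proc*, the ligand of PROCR, was at 0 in all libraries but BMP7 1, which had 2 fragments. *Esrp2*, an epithelial splicing factor that acts on *Cd44*, fell from 135 ± 7.18 to 105 ± 8.22 CPM (log2 fold change -0.35, edgeR adjusted p = 0.00196). *Esrp1*, its more abundant relative, was at 385 to 398 CPM in Ctrl and 347 to 390 CPM with BMP7 (log2 fold change -0.08, edgeR adjusted p = 0.432), and counts per gene do not show splice forms.

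Near EPCAM, *Spint1*, a membrane protease inhibitor, fell from 82.0 ± 1.10 to 68.0 ± 1.14 CPM (log2 fold change -0.27, edgeR adjusted p = 0.00593). This was just past the fold threshold, and within it without Ctrl 1 or BMP7 1 (log2 fold change -0.26 each). Its more abundant relative *Spint2*, at 208 CPM in Ctrl and 193 with BMP7, was not called (log2 fold change -0.11, edgeR adjusted p = 0.281). Nor was *Cldn7*, at 1.21 and 0.858 CPM (log2 fold change -0.52, edgeR adjusted p = 0.469). *Prom2*, the relative of *Prom1*, was far more abundant than it at 113 ± 6.50 CPM in Ctrl, and fell to 87.0 ± 3.41 CPM (log2 fold change -0.38, edgeR adjusted p = 0.000567). *Sdc4*, a syndecan and a partner of THY1, fell from 329 ± 9.77 to 247 ± 14.5 CPM (log2 fold change -0.41, edgeR adjusted p = 0.000197). *Lbp*, described with *Cd14*, lost its call without Ctrl 1, Ctrl 2, BMP7 1 or BMP7 3 (adjusted p from 0.0688 to 0.131).

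**Figure D5:**
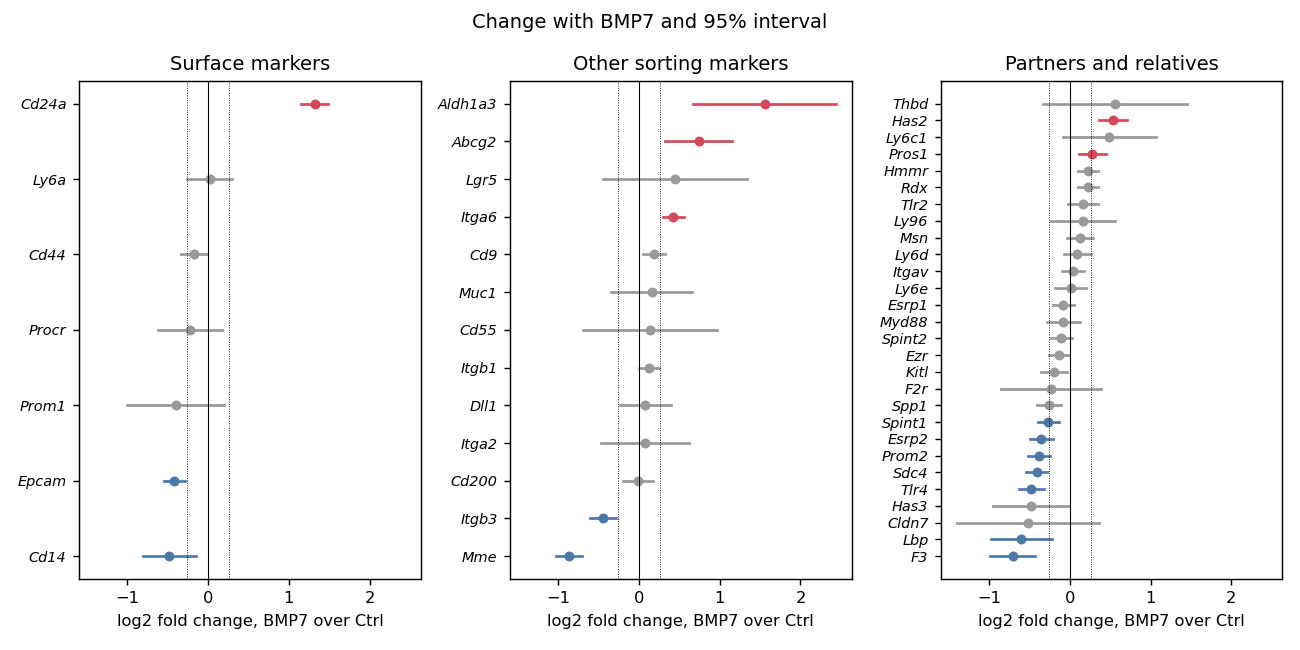
Log2 fold change of BMP7 over Ctrl (points) with its 95% interval (lines) for the tested surface markers, other sorting markers and partners (1 partner is not shown), with red for genes called higher, blue for genes called lower and grey for the rest. Dotted lines mark a fold change of 1.2 in each direction, and *Cd24a* lies apart from the other surface markers at 1.32.

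The genes whose pattern over the 6 libraries was nearest to a called marker were found by the Euclidean distance of log2 CPM centred on each gene. Nearest to *Cd24a* were *Jun* (distance 0.113, Pearson r = 0.998 over 6 libraries, log2 fold change 1.32) and *Gse1* (distance 0.120, r = 0.997, log2 fold change 1.34). Nearest to *Epcam* were *Nfkb2* (distance 0.0596, log2 fold change -0.38) and *Vsig10* (distance 0.0618, log2 fold change -0.42), and nearest to *Cd14* were *Polr3e* (distance 0.104, log2 fold change -0.44) and *Ccl6* (distance 0.115, log2 fold change -0.49, edgeR adjusted p = 0.341). With libraries in 2 groups such likeness is common, and 543 genes had a correlation above 0.95 with *Cd24a*, 309 with *Epcam* and 153 with *Cd14*.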

How the data were processed

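Poly(A) RNA of HC11 cells was sequenced in 3 Ctrl and 3 BMP7 libraries. The authors aligned read pairs with subjunc (Subread 2.0.3) and deposited raw counts of fragments per gene name from featureCounts (2.0.1 in the file header), on exons, without strand, leaving out fragments of several places or genes. The methods name mm10 and the file header an mm39 annotation. Per the file headers, the other column used holds summed exon length in bases. The column numbers of the BMP7 libraries (1, 3, 4) differ from their titles (1, 2, 3).

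The counts were analysed in R 4.3.3 with edgeR 4.0.16: filter by expression (15733 genes), TMM, quasi-likelihood test of BMP7 against Ctrl, and Benjamini-Hochberg adjustment over all genes tested. The fit had 4 residual degrees of freedom. Standard errors are the log2 fold change over the square root of F, and intervals use the t distribution with the moderated degrees of freedom. The main test differs from the DESeq2 named by the study, whose version 1.42.0 was an alternative. Permutation tests used log2 values. Copies were searched with BLAST 2.17.0. In counts simulated for 15733 genes, 42 of 50 genes raised by 1 on the log2 scale and 32 of 48 lowered by 0.5 were recovered, with 12 unchanged genes called.

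The 9 genes, the lists and the thresholds were chosen with earlier results of these data known. Named genes are the 9 markers, called genes of the 2 related lists, the 2 nearest patterns of each called marker, and cell type markers. *Gm6212*, *Snai2* and genes named as not called were added after their values were seen. Of the partner genes, 1 is counted in its list but not reported here.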

Additional observations from a re-analysis of the deposited data

How the results depend on the processing

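The calls of *Cd24a* and *Epcam* held under all 15 alternatives, that of *Epcam* less firmly. The highest adjusted p, from the test of each alternative, was 1.17e-06 for *Cd24a* and 0.0494 for *Epcam*. The smallest decrease of *Epcam* was -0.36 on the log2 scale. *Cd14* was the marker whose call did not: its log2 fold change was -0.48 with DESeq2, with RLE size factors (adjusted p = 0.0519) and with glmTreat, -0.26 for BMP7 1 alone, and -0.59 to -0.37 with 1 library left out. The number of markers called lower was thus 1 rather than 2 under these 4 settings and 1 to 2 with 1 library left out. *Ly6a* ranged from -0.17 (without BMP7 1) to 0.20 and *Procr* from -0.38 to 0.0083 (without Ctrl 2) with 1 library left out. glmTreat called 494 genes higher and 254 lower, and 563 to 902 genes were lower with 1 library left out (563 without Ctrl 2). Among other sorting markers glmTreat called 1 higher and 1 lower, and 1 to 3 were higher with 1 library left out. Among partners 1 was higher with upper-quartile scaling, glmTreat and BMP7 1 alone, 4 without a fold threshold and 1 to 2 with 1 library left out, and 2 were lower with glmTreat. The cause was not tested. Without TMM *Epcam* was at 655 CPM in Ctrl, against 639. By CPM, *Thy1* and *Kit* ranked 9 and 8 in Ctrl. Adding the counts of near-identical copies was chosen after seeing the data. No paired analysis was possible because the numbers of the BMP7 columns do not match those of the labels, and that alternative was not run. *Aldh1a3* had no value with at least 10 counts in every library. Few fragments limit *Kit*, *Thy1* and *Prom1*.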
